A study of Avena sativa with 6 samples.

Results

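Lipoxygenases are iron enzymes that add oxygen to linoleic and linolenic acid, the main polyunsaturated fatty acids of plant lipids. The type name gives the carbon that is oxidised. 13S enzymes mostly sit in plastids and start the synthesis of jasmonates and of leaf volatiles, whereas 9S enzymes mostly sit in the cytosol and feed other oxylipins. In cereal grains lipoxygenase products are known for their part in rancidity and off-flavours. Lipoxygenases were taken as all rows of the deposited oat table whose KEGG text carries K15718 (LOX1_5, linoleate 9S-lipoxygenase) or K00454 (LOX2S, 13S-lipoxygenase). These are 56 of 136488 rows: 28 carry K15718 alone and are called 9S here, 25 carry K00454 alone and are called 13S, and 3 carry both numbers. Annotation text picked the rows, but the family itself was selected on its FPKM in ear-shaded against unshaded grains, since 9S genes were already known to be among the largest differences. The shading differences of its members are therefore given as a description, and no p-value of a member is printed. Where members past a threshold are counted, the count stands beside that of all genes and supports nothing.

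RNA was measured in peeled grains of the high-oil oat (Avena sativa) cultivar BY9 (Baiyan No.9). One group came from ears that were shaded for 4 days after flowering, and the other from ears that were not shaded, with 3 libraries in each. Both groups share cultivar and tissue, and the labels name no other treatment. The deposited unit is FPKM, in which a fragment count is divided by gene length and by library size, so that levels can be set beside each other between genes. Libraries had FPKM totals of 493004 to 561772, and read depth is unknown. Nothing in the labels ties the libraries to different plants, and p-values therefore cover only the spread among the 6 libraries, possibly a technical one. The closest libraries were ear-shaded replicates 1 and 2, with a median absolute log2 difference of 0.09, where the remaining pairs of either group had 0.17 to 0.23.

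The grain label was checked against markers. Rows with gliadin text, storage proteins of the starchy endosperm, summed to between 3216 and 5486 FPKM in the ear-shaded libraries and to between 11373 and 23016 FPKM in the unshaded libraries. Of these 28 rows none was at 0 in all libraries, and 23 of 27 tested were lower under shading. Light-harvesting genes, 87 rows that mark green tissue, summed to between 583 and 728 FPKM in ear-shaded grains. In unshaded grains they summed to between 12.8 and 20.8 FPKM. Of these rows 41 were tested, and all 41 were higher. Given the low unshaded sum, most of the 41 reached the level for testing, a mean of 1 FPKM, only through the ear-shaded libraries. Rows with oleosin text, marking embryo and aleurone, summed to between 7.05 and 7.61 FPKM in ear-shaded grains and to between 18.2 and 32.01 FPKM in unshaded grains, with 5 of 5 tested rows lower. No row of the last 2 lists was at 0 in all libraries. These counts stand beside 42.4% higher and 21.5% lower among all genes tested. Marker levels thus moved with the groups in which lipoxygenase levels differed, and their part in those differences was not tested. In bulk grains, fewer cells of a type and less RNA per cell cannot be told apart.

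Most lipoxygenase rows were barely expressed in either group. Of the 56 rows, 37 stayed under 1 FPKM in all 6 libraries and 13 were listed at 0 in all unshaded libraries. Genes were tested if their 6 libraries averaged 1 FPKM or more, which 14 rows did: 3 of the 9S type, 10 of the 13S type and 1 with both numbers. Of these 14 rows, 9 had an unshaded mean under 1 FPKM and so passed only through the ear-shaded libraries. The limma model across all genes called all 14 higher at an adjusted p under 0.05, beside 42.4% of the 58283 genes tested that were higher, 21.5% that were lower and 63.9% in either direction. Because the family was chosen with this comparison known, and most of the 14 rows had to be higher in ear-shaded grains to be tested at all, nothing is read from that count.

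**Figure D1:**
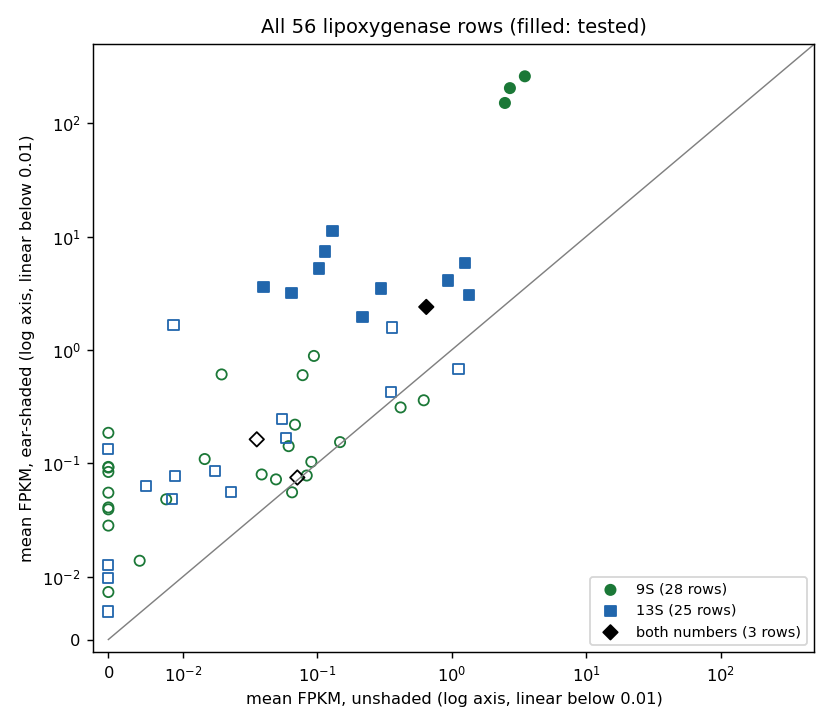
Mean FPKM of each of the 56 lipoxygenase rows in ear-shaded grains (vertical) and in unshaded grains (horizontal), 3 libraries each; the grey line marks equal levels, and filled symbols are the 14 tested rows. The 3 filled 9S rows stand alone at 151 to 259 FPKM in ear-shaded grains, and the highest 13S row is at 11.3 FPKM.

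Over all 56 rows without the level requirement, the 3 ear-shaded libraries lay wholly above the 3 unshaded ones in 32 rows, against 35.4% of all rows of the table and 46.2% of the genes tested. In the other 24 rows the groups overlapped, and in none did the ear-shaded libraries lie wholly below, against 16.7% of all rows. By type, ear-shaded libraries lay above in 18 of 25 13S rows and in 12 of 28 9S rows. The authors' deposited table marks 21 of the 56 rows as up, where it marks 13.4% of all rows. It marks 1 of the 56 as down, where it marks 12.9% of all rows, and gives no adjusted p for 10 rows.

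The 9S type was carried by 3 genes, AVESA.00010b.r2.7CG0697730, AVESA.00010b.r2.4AG0602020 and AVESA.00010b.r2.4DG0745900, named below without the shared prefix. The letters A, C and D in an ID stand for the subgenomes of hexaploid oat, so each subgenome holds 1 of them. Gene 7CG0697730 had 323, 330 and 124 FPKM in the ear-shaded libraries, against 2.59, 2.95 and 4.95 FPKM in the unshaded libraries. Gene 4AG0602020 had 258, 265 and 88.8 FPKM in ear-shaded grains, against 1.89, 2.37 and 3.87 FPKM in unshaded grains. Gene 4DG0745900 had 194, 188 and 71.4 FPKM in ear-shaded grains, against 1.47, 2.64 and 3.34 FPKM in unshaded grains. In all 3 genes the lowest ear-shaded library was replicate 3 and the highest unshaded library was replicate 3, and the groups did not overlap.

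These values put the genes among the abundant transcripts of shaded grains. By FPKM, 7CG0697730 ranked at places 37, 36 and 412 of all rows in the ear-shaded libraries and at places 27718, 26104 and 18192 in the unshaded ones. Gene 4AG0602020 ranked at places 57, 53 and 687 in the ear-shaded libraries and at 34494, 30534 and 22650 in the unshaded ones. For 4DG0745900 the places were 107, 114 and 939 in the ear-shaded libraries and 40333, 28276 and 25415 in the unshaded ones. The ratio of group means was 74.1 for 7CG0697730, 75.3 for 4AG0602020 and 60.7 for 4DG0745900. A ratio of at least 60.7 was reached by 151 of the 58283 genes tested. Tested genes without any unshaded signal have no ratio and are not among these 151. On the log2(FPKM + 1) scale the difference was 5.76 (SE 0.39) for 7CG0697730, 5.67 (SE 0.42) for 4AG0602020 and 5.35 (SE 0.39) for 4DG0745900.

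The balance among the 3 copies was close in both groups. Of their summed FPKM, 7CG0697730 held 42.5% ± 1.05 in ear-shaded grains and 40.4% ± 3.24 in unshaded grains (SD, n = 3 each). Gene 4AG0602020 held 32.8% ± 1.40 in ear-shaded grains and 31.1% ± 1.19 in unshaded grains. Gene 4DG0745900 held 24.7% ± 0.614 in ear-shaded grains and 28.5% ± 4.34 in unshaded grains. The shares of the ear-shaded and the unshaded libraries overlapped for each of the 3 genes. The order 7C, 4A, 4D held in each ear-shaded library and in unshaded replicates 1 and 3, while in unshaded replicate 2 the 4D gene stood above the 4A gene. The copies may be close in sequence, so reads could be divided among them, and their sum is firmer than any single copy.

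Each of the 3 genes has a further lipoxygenase next to it in ID order, and these neighbours showed much smaller differences. The neighbour 7CG0697720, which carries both K numbers, had 2.63, 2.39 and 2.16 FPKM in ear-shaded grains, against 0.538, 0.430 and 0.971 FPKM in unshaded grains. The neighbours 4AG0602030 and 4DG0745910 carry lipoxygenase text but neither K number, so they lie outside the 56 rows, and they are named here after their values had been seen. Gene 4DG0745910 had 10.4, 10.8 and 11.7 FPKM in ear-shaded grains, against 4.28, 4.02 and 7.72 FPKM in unshaded grains. Gene 4AG0602030 had 7.94, 6.94 and 8.18 FPKM in ear-shaded grains, against 2.40, 2.15 and 4.45 FPKM in unshaded grains. The ratios of group means were 3.70 for 7CG0697720, 2.06 for 4DG0745910 and 2.56 for 4AG0602030, with no overlap of groups. In unshaded grains 4DG0745910 was the most abundant lipoxygenase row in each library, above all 3 leading 9S genes, and in ear-shaded grains it stood below all 3 in each library.

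**Figure D2:**
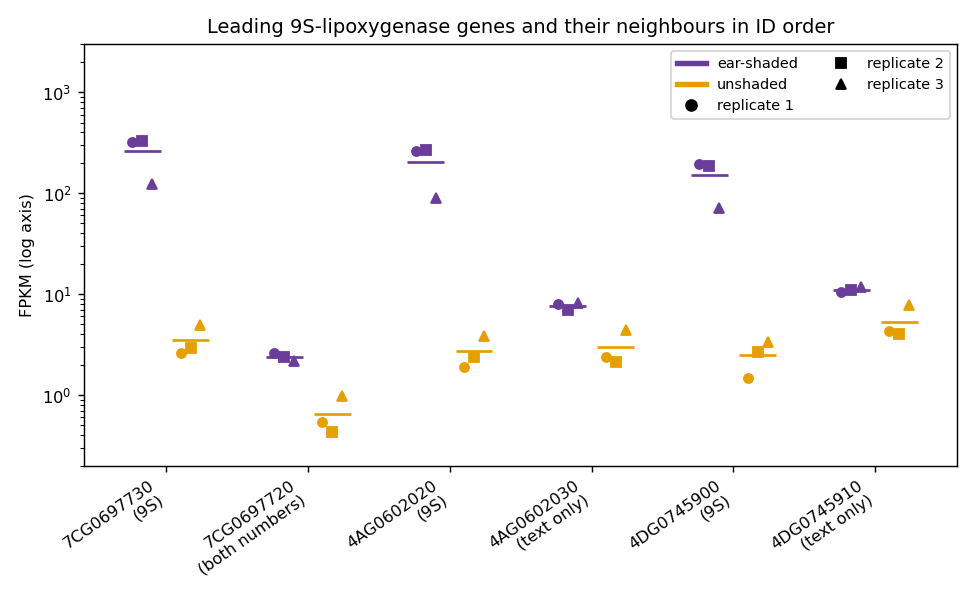
FPKM (log axis) per library of the 3 leading 9S genes, each beside its neighbour in ID order; symbols are replicates, short lines are group means of 3 libraries. The leading genes reach 71.4 to 330 FPKM in ear-shaded grains, while their neighbours stay between 2.16 and 11.7 FPKM.

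The other 25 9S rows were at low levels, with no single value above 1.31 FPKM. Among them the 3 of the highest mean were 6CG1113580, UnG1479680 and 2DG0384890. Gene 6CG1113580 had 1.19, 1.09 and 0.373 FPKM in ear-shaded grains, against 0.0752, 0.131 and 0.0763 FPKM in unshaded grains. Its ID neighbour 6CG1113570 had 0.738, 0.829 and 0.228 FPKM in ear-shaded grains, against 0.0581, 0.0967 and 0.0781 FPKM in unshaded grains. Both thus had their lowest ear-shaded value in replicate 3, as the leading genes had. Gene UnG1479680 had 0.147, 0.227 and 0.703 FPKM in ear-shaded grains, against 0.383, 0.991 and 0.482 FPKM in unshaded grains, and the groups overlapped. Gene 2DG0384890 overlapped too, at 0.415, 0.138 and 0.379 FPKM in ear-shaded grains, against 0.490, 0.403 and 0.355 FPKM in unshaded grains. Of the 28 9S rows, 14 are shorter than 2000 bases, down to 486 bases, and 7 lie on sequence with no assigned chromosome. No 13S row is that short and none is unassigned (2535 to 4246 bases). None of the 14 short 9S rows was tested.

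The 13S rows were lower in level and more of them were expressed. The most abundant, 2DG0379610, had 12.1, 11.9 and 9.78 FPKM in ear-shaded grains, against 0.0866, 0.129 and 0.174 FPKM in unshaded grains. Its ID neighbour 2DG0379630 had 8.51, 7.59 and 6.07 FPKM in ear-shaded grains, against 0.0470, 0.152 and 0.145 FPKM in unshaded grains. Gene 6CG1107150 had 6.35, 6.21 and 3.09 FPKM in ear-shaded grains, against 0.101, 0.0422 and 0.165 FPKM in unshaded grains. All 3 were near 0 without shading, and their ratios of group means were 87.0, 64.5 and 50.9 in that order.

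Another set of 13S rows had higher unshaded levels, with means of 0.932 to 1.34 FPKM in the 3 genes given here. Gene 2CG0303130 had 6.36, 6.66 and 4.43 FPKM in ear-shaded grains, against 0.997, 0.709 and 2.06 FPKM in unshaded grains. Gene 2AG0222930 had 4.50, 4.46 and 3.30 FPKM in ear-shaded grains, against 0.770, 0.411 and 1.62 FPKM in unshaded grains. Gene 2DG0327160 had 3.04, 3.11 and 2.96 FPKM in ear-shaded grains, against 1.03, 0.767 and 2.22 FPKM in unshaded grains. Groups did not overlap in these 3 genes, and unshaded replicate 3 was the highest unshaded library in each. The ratios of group means were 4.63 for 2CG0303130, 4.38 for 2AG0222930 (6.92 without unshaded replicate 3) and 2.27 for 2DG0327160. On the log2(FPKM + 1) scale the differences ran from 0.84 (SE 0.21) for 2DG0327160 to 3.44 (SE 0.12) for 2DG0379610. That scale compresses rows near 0: with a pseudocount of 0.1 the difference of 2DG0379610 was 5.64, beside 5.81 for the 9S gene 4DG0745900, so the types are compared by ratios of FPKM here.

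**Figure D3:**
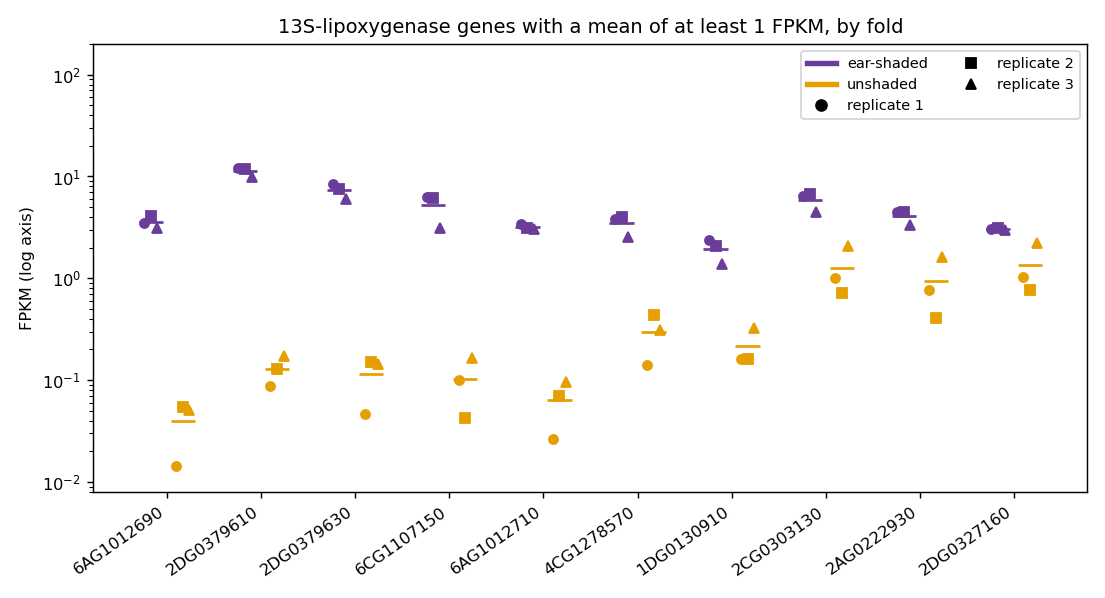
FPKM (log axis) per library of the 10 tested 13S rows, ordered by the ratio of group means; symbols are replicates and short lines are group means of 3 libraries. The 5 rows on the left had unshaded means of 0.0397 to 0.130 FPKM, and the 5 on the right of 0.217 to 1.34 FPKM.

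Gene Ontology text, which the choice of rows did not use, differs between the tested 13S rows of large and of small ratio. This was noticed after the values had been seen and is a description, and the 5 rows of large ratio were tested only because of their ear-shaded levels. The same holds for 1DG0130910, 4CG1278570 and 2AG0222930 among the rows of small ratio, with unshaded means of 0.217, 0.297 and 0.932 FPKM. Of the 25 rows, 16 carry the term for jasmonate synthesis, 6 carry a term for anther dehiscence instead, and 3 carry no such text. In Arabidopsis, 13S-lipoxygenases are known to feed jasmonate synthesis in wounded leaves and in the anthers. The 5 tested rows with the jasmonate term were 2DG0379610, 2DG0379630, 6AG1012690, 6AG1012710 and 6CG1107150, with ratios of 49.6 to 89.8. The 5 tested rows with the anther term were 1DG0130910, 2AG0222930, 2CG0303130, 2DG0327160 and 4CG1278570, with ratios of 2.27 to 11.7. Of these 10 genes, 6AG1012690, 6AG1012710, 1DG0130910 and 4CG1278570 are named after their values had been seen. Summed over all 6 rows, the anther set had 21.9, 21.9 and 16.0 FPKM in ear-shaded grains, against 3.36, 2.79 and 7.04 FPKM in unshaded grains. Summed over all 16 rows, the jasmonate set had 36.8, 35.9 and 28.7 FPKM in ear-shaded grains, against 1.70, 2.20 and 2.02 FPKM in unshaded grains. The 2 sets thus stood in opposite order in the groups: the jasmonate set was higher in each ear-shaded library and the anther set in each unshaded library. The split did not extend to all 11 jasmonate rows that were not tested. Among them 7AG1217800, 7DG1390510, 6AG1012090 and 6CG1107140 had ratios of 4.96, 5.66, 8.70 and 12.6, at ear-shaded means under 0.1 FPKM. Each was listed at 0 in unshaded replicate 1 and in another unshaded replicate, too close to 0 for these ratios to be read. Gene 7AG1203240 had a ratio of 1.20, with 0.336, 0.416 and 0.523 FPKM in ear-shaded grains, against 0.221, 0.384 and 0.459 FPKM in unshaded grains, and its groups overlapped. Gene 7DG1338870 had 0.472, 0.570 and 0.976 FPKM in ear-shaded grains, against 1.21, 1.25 and 0.904 FPKM in unshaded grains. The groups of 7DG1338870 overlapped too, and it is the 1 lipoxygenase row that the authors' deposited table marks as down.

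Within the jasmonate set the large ratios lay in ID neighbourhoods on 3 chromosomes. Chromosome 2D holds 2DG0379610 and 2DG0379630, chromosome 6A holds 6AG1012690 and 6AG1012710, and chromosome 6C holds 6CG1107140, 6CG1107150 and 6CG1107170. Together these 7 rows summed to 35.5, 34.6 and 27.0 FPKM in ear-shaded grains, against 0.275, 0.458 and 0.660 FPKM in unshaded grains. The other 18 13S rows summed to 23.6, 23.9 and 18.1 FPKM in ear-shaded grains, against 4.87, 4.58 and 8.68 FPKM in unshaded grains. The 7 neighbouring rows thus held most 13S expression under shading and little of it without shading. Gene 6CG1107170, at 1.60, 1.62 and 1.77 FPKM in ear-shaded grains, was listed at 0, 0.0113 and 0.0149 FPKM in unshaded grains, too close to 0 for its ratio to be read.

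By type, the balance of the family differed between the groups. The 9S rows summed to 779, 786 and 290 FPKM in ear-shaded grains, against 7.47, 10.3 and 13.9 FPKM in unshaded grains. The 13S rows summed to 59.2, 58.4 and 45.1 FPKM in ear-shaded grains, against 5.14, 5.03 and 9.34 FPKM in unshaded grains. The ratio of group means was 58.6 for the 9S sum and 8.33 for the 13S sum. The 9S sum rests on its leading genes: without the 3 of them the ratio was 2.40, over sums of 4.46 ± 0.980 FPKM in ear-shaded grains and 1.86 ± 0.399 FPKM in unshaded grains. Of all lipoxygenase FPKM, 9S rows held 92.6%, 92.8% and 86.0% in the ear-shaded libraries, against 56.7%, 64.8% and 57.0% in the unshaded libraries. The 13S rows held 7.03%, 6.89% and 13.4% in ear-shaded libraries, against 39.0%, 31.8% and 38.3% in unshaded libraries. The 9S share was higher in each ear-shaded library than in any unshaded one. If the rows with lipoxygenase text alone are added to the total, 9S rows held 40.7% in unshaded grains, a smaller part than 59.5% without them.

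**Figure D4:**
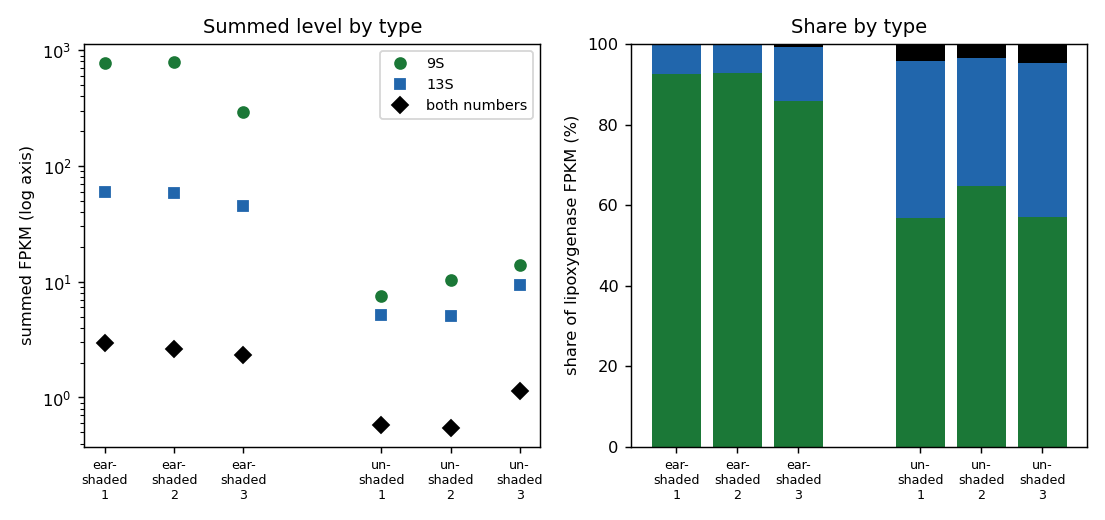
Left, summed FPKM (log axis) of the 9S rows, the 13S rows and the rows with both numbers in each library; right, their shares of all lipoxygenase FPKM in percent. The 9S share is 86.0% to 92.8% in ear-shaded libraries and 56.7% to 64.8% in unshaded libraries.

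Ear-shaded replicate 3 stood apart from the other ear-shaded libraries in the leading 9S genes. Its 9S sum was 0.371 times the mean of ear-shaded replicates 1 and 2, and its 13S sum 0.767 times that mean. The sum of the other 25 9S rows was instead highest in replicate 3, at 4.08, 3.72 and 5.57 FPKM in ear-shaded grains. In unshaded grains that sum was 1.52, 2.30 and 1.75 FPKM. The largest rises in ear-shaded replicate 3 were in 2 low rows. Of these, 4AG0606110 had 0.256, 0.258 and 1.31 FPKM in ear-shaded grains, against 0, 0 and 0.0581 FPKM in unshaded grains. The other, UnG1479680, had 0.147, 0.227 and 0.703 FPKM in ear-shaded grains. Among the same 25 rows, 6CG1113580 and 6CG1113570 were lowest in ear-shaded replicate 3. Unshaded replicate 3 was 1.57 times the mean of unshaded replicates 1 and 2 in the 9S sum and 1.84 times in the 13S sum. In marker levels too, ear-shaded replicate 3 had the lowest light-harvesting sum of its group (583 FPKM) and the highest gliadin sum (5486 FPKM). Without ear-shaded replicate 3 the ratio of group means was 74.2 for the 9S sum and 9.04 for the 13S sum.

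Expression was spread over the subgenomes in both types. In the 9S type, subgenome C held 42.4% ± 0.761 of the summed FPKM in ear-shaded grains and 34.7% ± 3.24 in unshaded grains. Subgenome D held 24.6% ± 0.592 in ear-shaded grains and 31.1% ± 2.32 in unshaded grains, and unassigned sequence 0.208% ± 0.270 in ear-shaded grains and 6.22% ± 3.44 in unshaded grains. In the 13S type subgenome D held the largest part, 45.6% ± 1.90 in ear-shaded grains and 47.0% ± 4.81 in unshaded grains, a difference smaller than the spread between replicates.

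The type names rest on KEGG text alone and were not tested as enzyme activities. Plastid terms stand in 22 of 25 13S rows and in none of the 28 9S rows, of which 16 carry any term for a cell compartment. Those same 16 9S rows carry the Gene Ontology term for 13S-lipoxygenase activity and none the 9S term. The 3 leading 9S genes carry no Gene Ontology text at all, so for them nothing stands beside the KEGG name.

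Genes whose profile lay closest to the leading member of each type were sought among 15414 other rows that averaged 5 FPKM or more and had KEGG or COG text. Likeness was the root mean square difference of log2(FPKM + 1) profiles over the 6 libraries, each centred on its own mean. For 7CG0697730 the nearest were GAPA genes of plastid glyceraldehyde-3-phosphate dehydrogenase (2CG0304140, 2AG0224760 and 2DG0378630, at 0.313, 0.320 and 0.380), the photosystem I gene psaL (4DG0780370, at 0.370) and a lipid-transfer protein (7CG0683350, at 0.379). Its fellow 9S genes 4AG0602020 and 4DG0745900 were nearer, at 0.0763 and 0.244. For 2DG0379610 the nearest were phosphoribulokinase (6AG1029960, at 0.0509), LHCA4 (7AG1226890, at 0.0513), protochlorophyllide reductase (1AG0063550, at 0.0521), a CAAX protease (UnG1410190, at 0.0631) and a light-harvesting gene (3CG0490110, at 0.0661). The KEGG text of 3CG0490110 names both LHCB1 and LHCB2. On this scale the 2 leading members stood 1.24 apart. Because it compresses rows near 0, that distance and the nearest genes depend on level as well as on ratio. The ratios of group means were 74.1 for 7CG0697730 and 87.0 for 2DG0379610. Of the neighbours of 7CG0697730, the lipid-transfer gene 7CG0683350 shared its low ear-shaded replicate 3, at 110, 108 and 34.2 FPKM in ear-shaded grains, against 0.241, 1.47 and 0.776 FPKM in unshaded grains.

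The genes around the lipoxygenase step were taken from a list of 18 KEGG numbers, of which alpha-dioxygenase and the phospholipase DAD1 matched no row. Of 250 rows 133 were tested, and 79 were higher and 18 lower under shading (limma, adjusted p under 0.05), beside 42.4% and 21.5% of all genes tested. With median-of-ratios scaling 63 were higher and 26 lower, beside 17316 higher and 17350 lower of the 58283 genes tested. The counts per enzyme below stand beside these same shares of all genes.

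Of the enzymes that use lipoxygenase products, 2 were higher in all tested rows and 1, the most abundant in unshaded grains, moved both ways. Allene oxide synthase turns hydroperoxides into allene oxides, the entry to jasmonate. All 6 of its tested rows were higher. Of these, 7CG0704610 and 4AG0609150 had unshaded means of 0.268 and 0.216 FPKM and were tested only through their ear-shaded libraries. The most abundant, 4CG1329170, had 252, 257 and 97.3 FPKM in ear-shaded grains, against 2.46, 8.65 and 3.37 FPKM in unshaded grains, a log2 difference of 5.14 (SE 0.47, limma adjusted p = 9.27e-05). Its ratio of group means was 41.9, or 69.3 without unshaded replicate 2. As in the leading 9S genes, its ear-shaded replicate 3 was well below the others, at 0.382 times the mean of replicates 1 and 2. Summed allene oxide synthase was 490 ± 208 FPKM in ear-shaded grains and 19.7 ± 6.38 FPKM in unshaded grains, where the 13S sum was 54.2 ± 7.93 FPKM in ear-shaded grains and 6.51 ± 2.46 FPKM in unshaded grains. Hydroperoxide lyase, which cuts hydroperoxides into volatile aldehydes, was higher in 3 of 3 rows. These rows together had 0.193 ± 0.0457 FPKM in unshaded grains. They were thus tested only through their ear-shaded libraries, and nothing is read from that count. The lyase gene 3DG0516470 had 4.89, 4.97 and 3.89 FPKM in ear-shaded grains, against 0.0448, 0.0781 and 0.131 FPKM in unshaded grains (log2 difference 2.36, SE 0.12). Peroxygenases, many of them oil-body proteins, moved both ways, with 10 of 19 rows higher and 7 lower. Their summed level was lower under shading, at 360 ± 67.4 FPKM in ear-shaded grains and 891 ± 249 FPKM in unshaded grains. The most abundant, 2CG0309000, had 64.9, 62.7 and 86.4 FPKM in ear-shaded grains, against 459, 283 and 237 FPKM in unshaded grains, and fell by 2.14 on the log2 scale (SE 0.28, limma adjusted p = 0.000395).

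In the jasmonate branch the early step was higher throughout and the later ones were mixed. Allene oxide cyclase was higher in 3 of 3 rows. Its gene 4CG1304710 had 16.8, 15.9 and 13.9 FPKM in ear-shaded grains, against 4.01, 4.46 and 7.68 FPKM in unshaded grains. For 12-oxophytodienoate reductase, 7 of 11 tested rows were higher and 2 lower. Its most abundant gene, 2DG0327630, had 21.0, 21.1 and 33.2 FPKM in ear-shaded grains, against 33.1, 48.9 and 29.1 FPKM in unshaded grains, with overlapping groups, and did not pass (limma adjusted p = 0.0863). With library weights, without ear-shaded replicate 3 or after median-of-ratios scaling it was called lower. Of the OPC-8:0 CoA ligases 4 of 6 were higher and 2 lower (1 without ear-shaded replicate 1 or without ear-shaded replicate 2). Among the lower ones was the most abundant, 6DG1150610, at 1.56, 1.36 and 2.69 FPKM in ear-shaded grains, against 17.5, 17.6 and 15.1 FPKM in unshaded grains.

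The peroxisomal enzymes that shorten the jasmonate precursor also serve general fatty acid breakdown. Acyl-CoA oxidase was higher in 10 of 13 rows and MFP2 in 6 of 10, with none lower. Acetyl-CoA acyltransferase was higher in 2 of 6, and in 0 without any of ear-shaded replicates 1, 2 and 3 or unshaded replicates 1 and 2, each left out alone. With median-of-ratios scaling these counts were 7 higher and 1 lower, 4 and 1, and 0 and 1. The most abundant acyl-CoA oxidase, 7AG1198290, and acyltransferase, 6CG1127780, did not pass, with ratios of group means of 1.22 and 1.23. Both were called higher with library weights and without unshaded replicate 3, and changed sign with median-of-ratios scaling. The most abundant MFP2 gene, 6DG1180660, was higher, with a ratio of 2.03. The synthetases that join jasmonate to amino acids had 1 of 6 rows higher and 3 lower, and with median-of-ratios scaling 0 higher and 4 lower. The 1 higher row, 1AG0001800, also carries the KEGG number K14487 of the auxin-responsive GH3 family, so its substrate is not settled. Its call was lost without ear-shaded replicate 1 or 2 and without unshaded replicate 1 or 2, each left out alone. The 1 tested jasmonate O-methyltransferase did not pass.

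Of the signalling genes, JAZ repressors were higher in 14 of 24 tested rows and lower in none, or 10 higher and 1 lower with median-of-ratios scaling, and 1 was lower without unshaded replicate 1. The most abundant JAZ gene, 2AG0243770, was higher, with a ratio of group means of 1.31. Its call was lost with median-of-ratios scaling and with a replicate block. It was also lost without any of ear-shaded replicates 1, 2 and 3 or unshaded replicates 1 and 2, each left out alone. The transcription factor MYC2 was higher in 3 of 3 rows. The MYC2 gene 1AG0056790 had 13.3, 13.1 and 10.4 FPKM in ear-shaded grains, against 3.56, 2.88 and 4.79 FPKM in unshaded grains. The receptor COI1 was higher in 4 of 9 rows and lower in 2, or 3 and 3 with median-of-ratios scaling. The first counts are near the shares of all genes tested, 42.4% higher and 21.5% lower, so nothing is read from them. Its most abundant gene, 1AG0046170, had 4.09, 4.72 and 3.66 FPKM in ear-shaded grains, against 22.1, 17.1 and 13.8 FPKM in unshaded grains.

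Of the desaturases that make the substrates, the omega-6 desaturase FAD2, which makes linoleic acid, was lower in 2 of 3 tested rows, in 3 with median-of-ratios scaling and in 0 with quantile normalization. Its count was also 0 without ear-shaded replicate 1, without ear-shaded replicate 2 and with these averaged into 1 library, and 1 without unshaded replicate 1 or without unshaded replicate 2. The omega-3 desaturases, which make linolenic acid, were higher in 6 of 10 tested rows and lower in none.

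**Figure D5:**
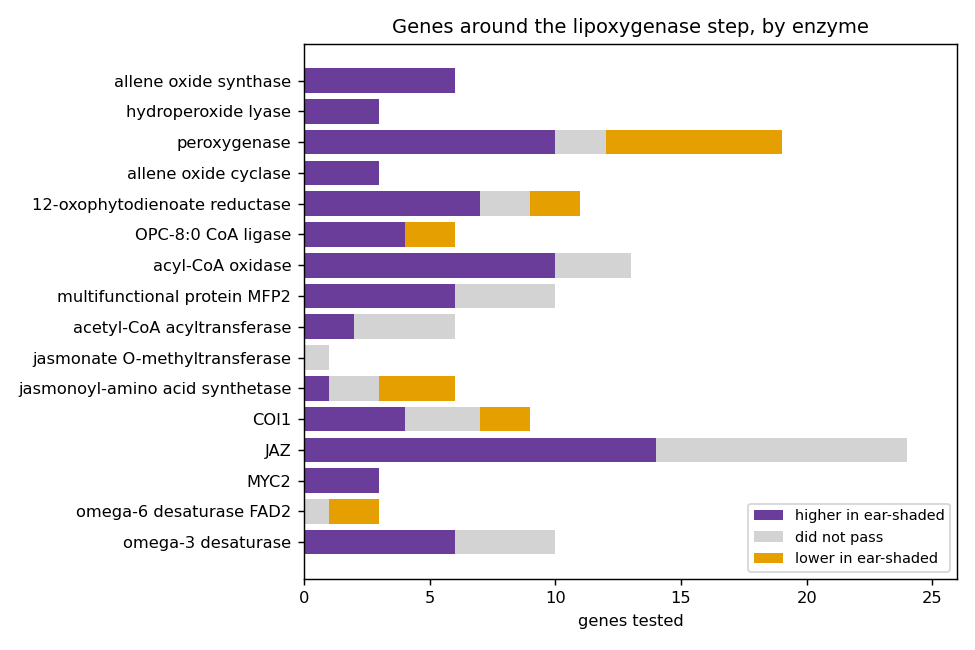
Number of tested genes of each listed enzyme that were higher in ear-shaded grains, did not pass, or were lower in ear-shaded grains (limma, adjusted p 0.05). Allene oxide synthase (6), hydroperoxide lyase (3), allene oxide cyclase (3) and MYC2 (3) have higher rows throughout, while peroxygenase has 10 higher and 7 lower. All hydroperoxide lyase rows and some allene oxide synthase rows were tested only through their ear-shaded libraries.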

How the data were processed

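RNA-seq values of 6 libraries of peeled oat grains were used, 3 ear-shaded and 3 unshaded, grouped by the treatment label. The authors deposited FPKM per gene and library with gene lengths, and their own log2 fold change and p-values, which are quoted only as marks. The submitters' processing notes list HISAT2 and StringTie. Per the labels' protocols the library kit was an Illumina one and the sequencer a PacBio one, so the platform is not settled. No genome build, annotation or strand setting was found in the sources.

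FPKM are not counts, so genes averaging 1 FPKM or more were fitted on log2(FPKM + 1) in limma 3.58.1 under R 4.3.3, using a trended prior variance, a two-sided test and Benjamini-Hochberg adjusted p-values across every tested gene. The model was tested on simulated data with 200 of 58283 genes changed. It called 54.9% of log2 changes of 1 and 91.7% of log2 changes of 2, with 8 false calls. In the real data 63.9% of the genes tested were called, and changes in so many genes were not simulated. The pseudocount understates the change of low genes, so ratios of mean FPKM are given beside it. Members and lists were chosen with earlier results of these data known. Named members are the 6 most abundant rows per type and called rows of the largest change, and per listed enzyme the most abundant row. Any other member named, as an ID neighbour or for its Gene Ontology text, was chosen after its values had been seen. ID neighbours are rows whose ID numbers on 1 chromosome differ by at most 100. Alternatives covered pseudocount, filter, scaling, variance model, library weights, replicate block, leaving out single libraries, and averaging ear-shaded replicates 1 and 2. Sequences and gene positions were not used here.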

Additional observations from a re-analysis of the deposited data

How the results depend on the processing

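The 9 tested lipoxygenase genes that the naming rule gave kept the sign of their log2 fold change in all alternatives that tested them. Exceptions to their call were 2DG0327160 (0.84), which missed a 2-fold requirement, and 2DG0379630, 2CG0303130, 6CG1107150, 2AG0222930 and 2DG0327160, which were not tested at a mean of 5 FPKM. The counts of called genes depended on the filter. At a mean of 5 FPKM, 12567 of all genes passed in place of 37227, with 1 13S row in place of 10 and 59 pathway rows in place of 97. With no filter 56196 genes passed, with 8 9S rows in place of 3 and 17 13S rows. With a 2-fold requirement 15563 genes and 63 pathway rows passed. Under median-of-ratios scaling 17316 genes were higher and 17350 lower, in place of 24724 and 12503, under quantile normalization 18568 and 16367. Over all tested genes these scalings gave median log2 fold changes of 0.01 and 0.05 in that order, in place of 0.26. Quantile normalization also moved the 9S shares of subgenomes C and D in ear-shaded grains to 44.0% and 23.7%. Without the 3 leading rows the 9S ratio was 2.40, and with text matches the unshaded 9S share was 40.7% (the first of these was chosen after seeing the data). Text matching could not be used for counts by type, since the added rows name no type. With single libraries left out, the ratio ran from 50.7 to 74.2 for the 9S sum and from 7.49 to 10.7 for the 13S sum, and all genes called from 30665 to 38069. The replicate numbers did not pair the libraries (correlations of deviations -0.05, -0.05 and -0.15), and with a replicate block 33446 genes, 89 pathway rows, 3 9S rows and 10 13S rows passed. Depth is unknown, so values near 0 carry no interval.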
